A study of Homo sapiens with 12 samples.

Results

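The comparison set the vesicles of mature cardiomyocytes (CMm-EV, day 35 of differentiation) against those of the undifferentiated starting cells (hiPSC-EV, day 0), the first and the last EV group of the series. Its members were the 3 CMm-EV and the 3 hiPSC-EV libraries, 6 of the 12 small RNA libraries. All cells came from iPS(IMR90)-4, an established human induced pluripotent stem cell line, and the 3 libraries of a group were labelled as separate EV isolations. EV are membrane-bound particles released by cells into the medium, and here they were taken from the conditioned medium by differential centrifugation and a density gradient.

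The groups differed in more than cell state. The hiPSC-EV medium was a stem cell expansion medium conditioned for 24 h at day 0. The CMm-EV medium was conditioned for 48 h at day 35 by 3D cardiomyocyte aggregates in orbitally shaken suspension, kept in a maturation medium with galactose and fatty acids in place of glucose. Medium, culture format and conditioning time cannot be told apart from cell state in this design. Each value below is a share of the RNA sequenced in its library, so that a lower share can come with an unchanged amount of that RNA per vesicle, and fewer vesicles of a kind and less RNA per vesicle cannot be told apart. With all libraries from 1 cell line, p-values measure the spread between isolations.

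MicroRNA (miRNA) are short RNA that guide Argonaute proteins to messenger RNA, mostly by pairing of the seed (bases 2 to 8 of the mature strand) with the target. Many are made in clusters from a common transcript, and members of a family share the seed. Pluripotent stem cells are known for the miR-302/367 cluster, the miR-371 to miR-373 and C19MC clusters of chromosome 19 and the miR-17 family. Striated muscle is known for the myomiRs (miR-1, miR-133, miR-208, miR-499), several of them encoded in introns of myosin heavy chain genes, and let-7, miR-99/100 and miR-125 are known to rise as cells leave the pluripotent state.

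The mature sequences of the miRNA on which the results turn are given 5′ to 3′ with the seed in capitals, grouped by seed, from RefSeq (GRCh38.p14). The first set was lower in CMm-EV than in hiPSC-EV.
miR-302b-3p: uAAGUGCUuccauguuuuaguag
miR-302c-3p: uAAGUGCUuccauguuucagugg
miR-302d-3p: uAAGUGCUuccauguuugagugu
miR-372-3p: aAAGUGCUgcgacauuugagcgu
miR-302a-5p: aCUUAAACguggauguacuugcu
miR-92a-3p: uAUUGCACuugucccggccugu
miR-92b-3p: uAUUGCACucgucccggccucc
miR-363-3p: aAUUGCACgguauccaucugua
miR-367-3p: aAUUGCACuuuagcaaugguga
miR-182-5p: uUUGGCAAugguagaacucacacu
miR-183-5p: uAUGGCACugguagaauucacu

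The second set was higher in CMm-EV than in hiPSC-EV. The miR-99/100 and miR-125 families stand first because they made up most of the CMm-EV miRNA.
miR-100-5p: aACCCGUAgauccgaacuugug
miR-99a-5p: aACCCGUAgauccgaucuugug
miR-99b-5p: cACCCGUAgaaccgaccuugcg
miR-125a-5p: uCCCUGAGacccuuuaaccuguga
miR-125b-5p: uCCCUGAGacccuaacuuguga
miR-143-3p: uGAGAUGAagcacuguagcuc
miR-1-3p: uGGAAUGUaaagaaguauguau
miR-133a-3p: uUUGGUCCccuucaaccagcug
miR-208a-3p: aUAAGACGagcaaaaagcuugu
let-7e-5p: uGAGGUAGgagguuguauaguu
let-7c-5p: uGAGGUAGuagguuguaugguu
miR-10a-5p: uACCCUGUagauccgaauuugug

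Library totals were 1514392, 4538144 and 9594408 in hiPSC-EV 1, 2 and 3 and 1606949, 7574162 and 5964716 in CMm-EV 1, 2 and 3. The counts on miRNA were 703418, 2511810 and 5598296 in hiPSC-EV and 984868, 6272456 and 5072950 in CMm-EV. A count of 0 allows up to 3 counts, or between 0.589 CPM in CMm-EV 2 and 2.82 CPM in hiPSC-EV 1, a limit that covers counting error only. CPM scale the counts to the total miRNA counts of the library, adjusted by the trimmed mean of M-values (TMM) within the 6 libraries. Isolations of a group differed by more than counting error (chi-square per degree of freedom from 65.9 to 781), so that each entered as a separate replicate.

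The labelled cell types were checked against the gencode transcripts, the RNA fragments that the authors assigned to annotated genes. Counts on POU5F1, a transcription factor that defines the pluripotent state, were 101, 145 and 151 in hiPSC-EV and 0 in each CMm-EV library. Counts on MYH6, the atrial myosin heavy chain of cardiomyocytes, were 0, 0 and 1 in hiPSC-EV and 102, 574 and 308 in CMm-EV. The markers went with the labels in all 6 libraries.

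The first question was how the 5 RNA classes of the deposited tables divide the cargo at both ends of differentiation. miRNA made up 55.7%, 61.3% and 64.0% of the class counts in hiPSC-EV and 76.9%, 89.0% and 89.3% in CMm-EV. The groups did not overlap, and the mean rose from 60.3% ± 4.20 to 85.0% ± 7.05 (SD, n = 3 each; two-sided exact permutation test, p = 0.1, the smallest p that 3 against 3 can give). Gencode transcripts made up 22.2% ± 2.04 in hiPSC-EV and 6.67% ± 3.13 in CMm-EV, and piRNA 8.16% ± 1.11 and 2.38% ± 0.543, both without overlap (exact permutation p = 0.1 for each, n = 3). The tRNA share was 8.80% ± 3.66 and 5.12% ± 2.67 with overlapping groups (exact permutation p = 0.2, n = 3). Circular RNA held 0.529% ± 0.348 and 0.794% ± 0.763 (exact permutation p = 0.6, n = 3), and without CMm-EV 1 the difference changed sign, from 0.265 to -0.173 percentage points.

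**Figure D1:**
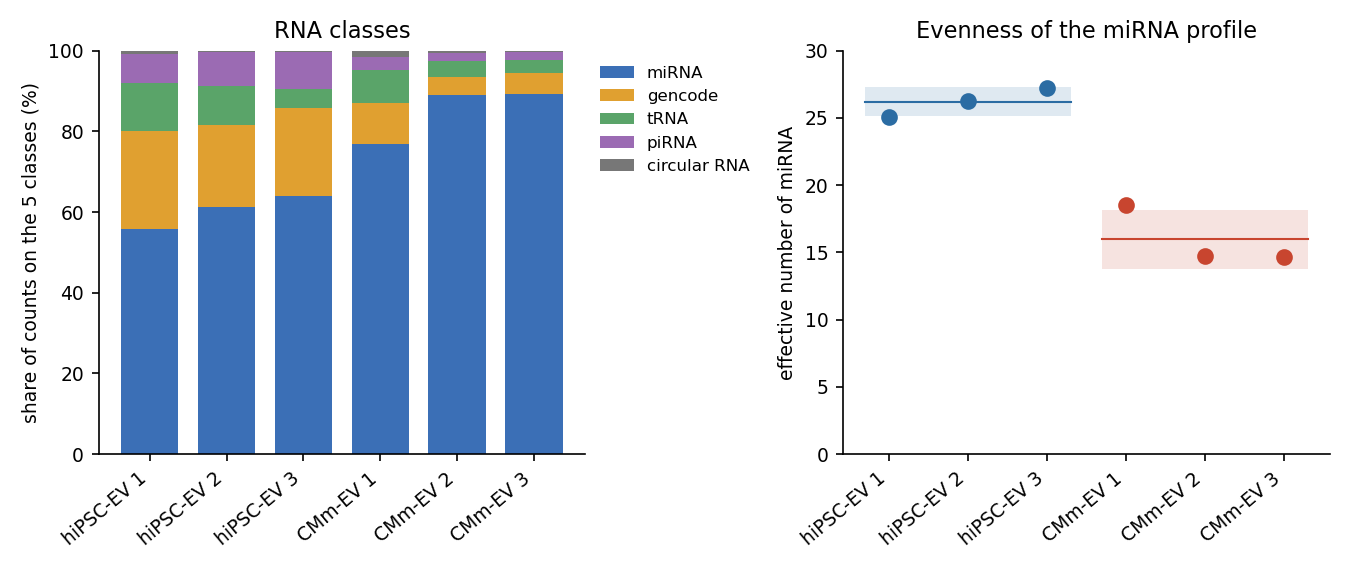
Left, stacked bars of the share of the counts on 5 RNA classes (y axis, percent) in each of the 3 hiPSC-EV and 3 CMm-EV libraries; right, the effective number of miRNA in each library (points) with the group mean (line) and ±1 SD (band). miRNA take 76.9% to 89.3% of the CMm-EV bars and 55.7% to 64.0% of the hiPSC-EV bars, and the effective number is 16 against 26.2 on average.

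The miRNA cargo of CMm-EV was concentrated in fewer species. The most abundant miRNA, miR-302b-3p in every hiPSC-EV library and miR-100-5p in every CMm-EV library, held 20.4%, 17.1% and 16.7% of the miRNA counts in hiPSC-EV and 23.4%, 28.4% and 25.1% in CMm-EV. Reaching 90% of the counts took 31 to 34 miRNA in hiPSC-EV and 15 to 21 in CMm-EV. The effective number of miRNA, the exponential of the Shannon entropy of their shares, was 26.2 ± 1.08 in hiPSC-EV and 16 ± 2.21 in CMm-EV, with no overlap (two-sided exact permutation test, p = 0.1, n = 3). Between 352 and 879 miRNA had at least 1 count in hiPSC-EV and between 276 and 417 in CMm-EV, numbers that move with depth (exact permutation p = 0.3, n = 3).

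At 5 CPM in each of the 3 libraries of a group, 295 miRNA were expressed in hiPSC-EV and 187 in CMm-EV. Of these, 146 were expressed in both groups, 149 only in hiPSC-EV and 41 only in CMm-EV by this limit. Of the 10 most abundant miRNA of each group, 3 were common: miR-26a-5p, miR-191-5p and miR-99b-5p.

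Of 336 miRNA tested with the quasi-likelihood test of edgeR, 180 were called (53.6%), that is, their level changed at least 2-fold with a Benjamini-Hochberg FDR of at most 0.05. In CMm-EV 54 were higher (16.1%) and 126 lower (37.5%). Of the called miRNA, 52 had no count in any CMm-EV library, against 4 with none in hiPSC-EV. The libraries of the groups did not overlap for 242 of the tested miRNA (72%), including all 180 called. Of the 146 expressed in both groups, 25 were higher and 44 lower. The median log2 fold change over all tested miRNA was -1.53. It moved to -1.20 with median-of-ratios scaling, -1.98 with library size alone and -1.01 in the fit of all 12 libraries, so that single values below are read against that shift. Where the set of tested miRNA changed too, it was -0.81 without CMm-EV 1, -0.92 with filterByExpr and -3.19 with no filter. A miRNA could pass the filter through the group in which it was high, so that the counts and medians over the tested members of a list below describe those members and not the list as a whole. Where members had no count in 1 group, the median is also given with them at their bound.

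**Figure D2:**
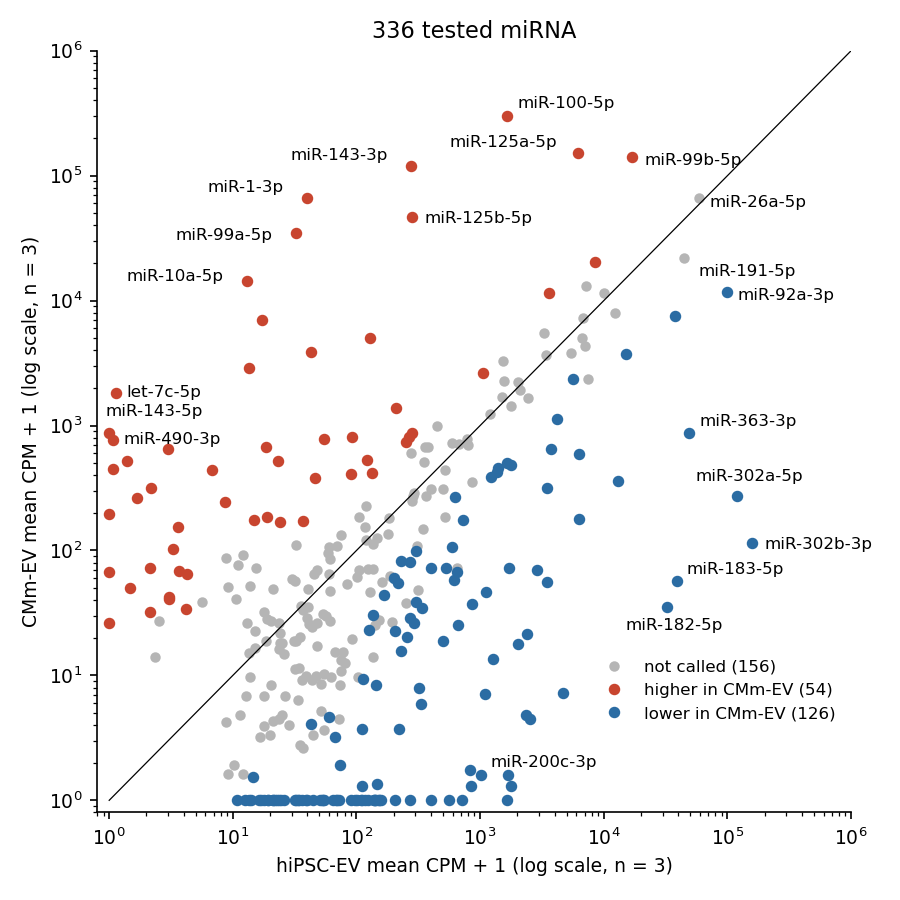
Mean CPM + 1 of each of the 336 tested miRNA in hiPSC-EV (x axis) and CMm-EV (y axis), n = 3 each, both on log axes, with the line of equal levels. The 54 called higher (red) and 126 called lower (blue) lie off the line, with miR-302b-3p far to its right and miR-100-5p far above it, and the uncalled miR-26a-5p (grey) lies on it at a high level.

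The miR-302/367 cluster, the most abundant miRNA cluster of human pluripotent stem cells, was a leading part of the hiPSC-EV cargo and was left at traces in CMm-EV. It held 33.9%, 31.4% and 31.8% of the miRNA counts in hiPSC-EV and 0.0609%, 0.0288% and 0.0237% in CMm-EV. Of 10 members with counts 9 were tested, and all 9 were called lower, beside 37.5% lower over all tested miRNA. Their median log2 fold change was -10.46 (-9.33 with 3 members at their bound), against -1.53 over all tested miRNA. miR-302b-3p had 134799, 154254 and 188838 CPM in hiPSC-EV and 220, 71.9 and 50.4 CPM in CMm-EV. The highest CMm-EV value was that of library 1, and the log2 fold change was -10.46 ± 0.54 (SE, edgeR FDR = 9.01e-05) and -11.08 without it.

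The 5p strand of miR-302a was abundant as well, below miR-302b-3p in each hiPSC-EV library. miR-302a-5p had 82450, 120253 and 157921 CPM in hiPSC-EV and 316, 256 and 249 CPM in CMm-EV, a log2 fold change of -8.78 ± 0.30 (edgeR FDR = 1.42e-05). The CMm-EV libraries lay close together, far under the lowest hiPSC-EV library. miR-302c-5p had a mean of 1640 CPM in hiPSC-EV and no count in CMm-EV, at least 1197-fold lower. miR-367-3p had 184, 178 and 246 CPM in hiPSC-EV and no count in CMm-EV, at least 148-fold lower (edgeR FDR = 5.04e-04). miR-302d-3p had 444, 2298 and 6479 counts in hiPSC-EV and 1, 0 and 0 in CMm-EV. Its log2 fold change of -12.42 ± 1.59 (edgeR FDR = 2.83e-04) ran from -14.43 without CMm-EV 1 to -11.39 without CMm-EV 2. Without CMm-EV 1 no count was left in the group, so that -14.43 is a value as fitted and not a bound. The same holds below wherever the library left out held all counts of its group.

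The hairpins lie on the minus strand of chromosome 4 within exons of MIR302CHG, the lncRNA that hosts the cluster (hg38, GENCODE 44). miR-302b is at chr4:112648485-112648557, miR-302a at chr4:112648183-112648251 and miR-367 at chr4:112647874-112647941.

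The other clusters known from pluripotent cells fell as well. All 9 tested members of the miR-106a-363 cluster on the X chromosome were lower, beside 37.5% lower over all tested miRNA. The cluster went from 5.82% ± 0.220 of the miRNA counts to 0.0802% ± 0.0210. Both tested members of the miR-371 to miR-373 cluster, among them miR-372-3p with the miR-302 seed, were lower, beside the same 37.5%. C19MC is a primate cluster also known from placenta. All 10 tested of its 47 members with counts were lower, again beside 37.5%. miR-1323 of C19MC had 2042, 4647 and 7216 counts in hiPSC-EV and 2, 0 and 0 in CMm-EV, and miR-371a-5p had 583, 2793 and 7354 against 2, 0 and 0. The 2 counts of each were in CMm-EV 1, and without that library no count was left in the group. The log2 fold changes were -12.52 ± 1.31 for miR-1323 and -11.76 ± 1.42 for miR-371a-5p (edgeR FDR = 2.83e-04 and 6.01e-04), and leaving out single CMm-EV libraries moved them between -15.54 and -11.57 and between -14.69 and -10.71.

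The miR-17-92 cluster and its paralogs are known for promoting cell proliferation. The miR-17-92 cluster fell from 11.8% ± 1.68 to 1.07% ± 0.307 of the miRNA counts, nearly all of it miR-92a-3p (90612 of 93299 counts in hiPSC-EV 1 and 64219 of 64999 in CMm-EV 2). Of 9 tested members 4 were called lower and none higher, beside 37.5% lower over all tested miRNA, with a median log2 fold change of -4.24. miR-92a-3p had 85290, 105968 and 106049 CPM in hiPSC-EV and 12191, 12610 and 10489 CPM in CMm-EV. This was an 8.42-fold decrease with little spread in either group (log2 fold change -3.07 ± 0.22, edgeR FDR = 9.01e-05), and miR-92a-3p remained among the abundant miRNA of CMm-EV. Mature miR-92a-3p is made from a hairpin of miR-17-92 at chr13:91351314-91351391, in an exon of MIR17HG, and from another of miR-106a-363 at chrX:134169538-134169612, and its counts cannot be divided between them.

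miR-363-3p, next to the latter hairpin, fell further. It had 36454, 47844 and 63203 CPM in hiPSC-EV and 896, 898 and 839 CPM in CMm-EV, a log2 fold change of -5.81 ± 0.27 (edgeR FDR = 2.87e-05). miR-20a-5p went from 2856 ± 1637 to 68.9 ± 6.23 CPM (mean ± SD, n = 3, log2 fold change -5.37 ± 0.45, edgeR FDR = 2.83e-04). In the miR-106b-25 cluster, 4 of 6 tested members were lower, beside 37.5% over all tested miRNA. Of these, miR-93-5p and miR-106b-5p (edgeR FDR = 0.0233 and 0.0498) both lost the call without hiPSC-EV 2 and without hiPSC-EV 3, miR-93-5p also without CMm-EV 2, and miR-106b-5p also without hiPSC-EV 1, without CMm-EV 3, with median-of-ratios scaling, with the filter filterByExpr and in the fit of all 12 libraries. In the same cluster, miR-25-3p had 2403, 2974 and 5062 CPM in hiPSC-EV and 182, 357 and 402 CPM in CMm-EV. The lowest of these was CMm-EV 1, without which the log2 fold change of miR-25-3p moved from -3.47 ± 0.44 to -2.88 (edgeR FDR of all 6 libraries = 0.00109). miR-92b-3p, encoded on chromosome 1 outside these clusters, fell 5.03-fold (log2 fold change -2.33 ± 0.25, edgeR FDR = 4.35e-04).

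**Figure D3:**
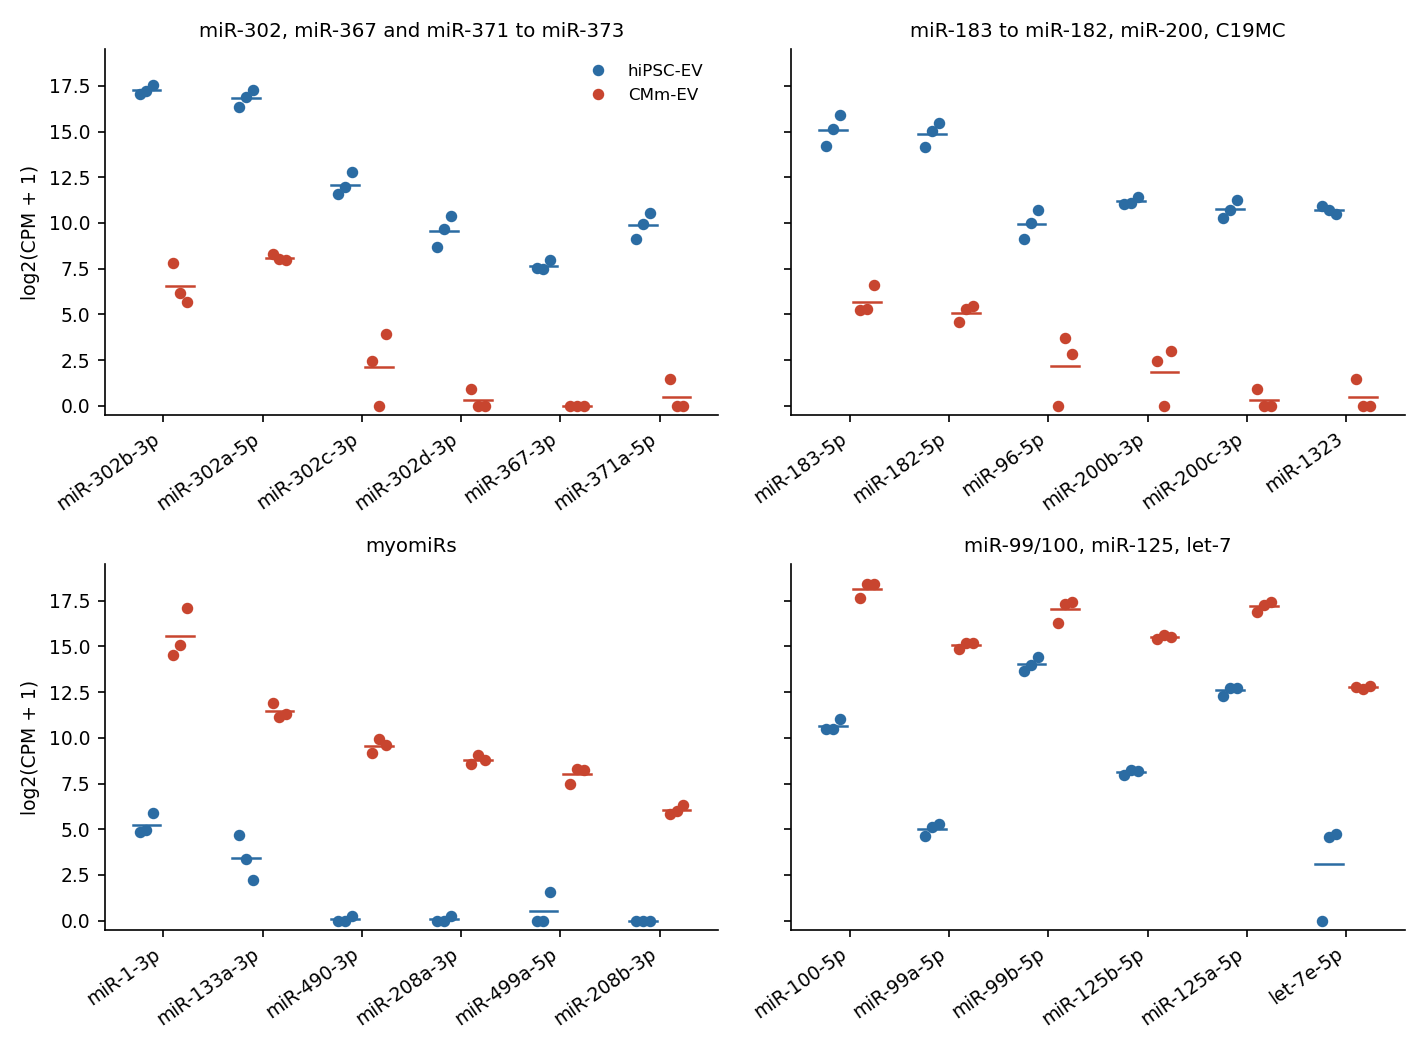
Level of named miRNA in each library (y axis, log2(CPM + 1)), 1 panel per group of lists, with the 3 hiPSC-EV libraries in blue, the 3 CMm-EV libraries in red and a line at each mean. The groups do not overlap for any miRNA shown, and miR-1-3p has the widest CMm-EV spread of the myomiRs shown, from 23563 to 138924 CPM.

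The miR-183/96/182 cluster, known from sensory organs and epithelia and also expressed in stem cells, went from 5.77%, 7.87% and 9.61% of the miRNA counts to 0.00660%, 0.00713% and 0.0105%. All 5 tested members were lower, beside 37.5% lower over all tested miRNA. miR-182-5p had 18331, 33012 and 45598 CPM in hiPSC-EV and 22.6, 37.5 and 43.4 CPM in CMm-EV (log2 fold change -9.86 ± 0.41, edgeR FDR = 2.87e-05). miR-183-5p had 19043, 36326 and 60930 CPM and 36.2, 38.3 and 94.6 CPM, with a log2 fold change of -9.42 ± 0.54 (edgeR FDR = 1.16e-04) and -8.82 without CMm-EV 1. Both were spread in hiPSC-EV, lowest in library 1 and highest in library 3, and the gap to CMm-EV was much wider than that spread.

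The miR-200 family guards the epithelial state by repressing the ZEB transcription factors. All 5 tested of its 8 members with counts were lower too, beside 37.5% lower over all tested miRNA. miR-200c-3p had 1304, 4651 and 12082 counts in hiPSC-EV and 1, 0 and 0 in CMm-EV. The log2 fold change was -13.50 ± 1.45 (edgeR FDR = 1.12e-04), and it ran from -15.53 without CMm-EV 1, which held the only count, to -12.50 without CMm-EV 2. miR-200b-3p went from 2340 ± 375 to 3.84 ± 3.55 CPM (mean ± SD, n = 3), with 5, 0 and 26 counts in CMm-EV. Its log2 fold change was -9.30 ± 1.03 (edgeR FDR = 0.00140) and ran from -10.77 to -8.46 over the alternatives other than the replicate block.

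In the other direction, the miR-99/100 and miR-125 families made up most of the miRNA of CMm-EV. Together they held 3.01%, 2.74% and 2.78% of the miRNA counts in hiPSC-EV and 54.3%, 62.0% and 57.3% in CMm-EV. Of 9 tested members 7 were higher and none lower, beside 16.1% higher over all tested miRNA, with a median log2 fold change of 6.13. The remaining pair, miR-99b-3p and miR-125a-3p, are the less abundant strands of their hairpins, with log2 fold changes of -0.92 and 1.26 that did not pass (edgeR FDR = 0.610 and 0.492).

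miR-100-5p, which is known to target the mTOR pathway, had 1425, 1414 and 2129 CPM in hiPSC-EV and 208159, 349571 and 343534 CPM in CMm-EV. CMm-EV 1 was the lowest of its group and still far above hiPSC-EV, and the log2 fold change was 7.50 ± 0.30 (edgeR FDR = 2.45e-05). miR-125a-5p had 5088, 6873 and 6763 CPM and 120673, 160715 and 175822 CPM, a 24.4-fold increase (log2 fold change 4.61 ± 0.25, edgeR FDR = 3.55e-05). miR-99b-5p started from the highest level of the family in hiPSC-EV, 13029, 15957 and 22174 CPM, and reached 80413, 164868 and 179574 CPM in CMm-EV (log2 fold change 3.05 ± 0.37, edgeR FDR = 8.69e-04).

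These miRNA come from related clusters of 3 chromosomes, each with a miR-99/100 and mostly a let-7 and a miR-125 member. On chromosome 19, miR-99b (chr19:51692612-51692681) and let-7e (chr19:51692786-51692864) lie in an intron and miR-125a (chr19:51693254-51693339) in an exon of SPACA6. On chromosome 21, miR-99a (chr21:16539089-16539169) and let-7c (chr21:16539828-16539911) lie in MIR99AHG, and on chromosome 11, miR-100 (chr11:122152229-122152308) and a miR-125b hairpin (chr11:122099757-122099844) lie in introns of MIR100HG.

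Members of 1 cluster rose by different factors. On chromosome 19, let-7e-5p rose from 0, 22.9 and 25.5 CPM to 6943, 6602 and 7333 CPM, a log2 fold change of 8.68 ± 0.90 (edgeR FDR = 0.00116), against 3.05 and 4.61 for its neighbours miR-99b-5p and miR-125a-5p. On chromosome 21, miR-99a-5p rose from 23.5, 33.7 and 37.4 CPM to 29435, 37239 and 36940 CPM (log2 fold change 10.08 ± 0.27, edgeR FDR = 6.26e-06). Its neighbour let-7c-5p had 0, 0 and 2 counts in hiPSC-EV and 1552, 6377 and 10438 in CMm-EV. The log2 fold change of let-7c-5p was 12.82 ± 1.03 (edgeR FDR = 6.40e-05), and 15.29 as fitted without hiPSC-EV 3, which held both counts. These differences between neighbours were not tested. miR-125b-5p, made from hairpins on chromosomes 11 and 21, rose from 280 ± 25.8 to 47011 ± 3431 CPM (mean ± SD, n = 3, log2 fold change 7.39 ± 0.22, edgeR FDR = 6.26e-06).

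The let-7 family, which represses LIN28 and is itself blocked by it in stem cells, held 0.183% ± 0.0295 of the miRNA counts in hiPSC-EV and 1.16% ± 0.217 in CMm-EV. Of 8 tested members, of 13 with counts, 4 were higher and none lower, beside 16.1% higher over all tested miRNA. Their median log2 fold change was 3.02. Besides let-7e-5p and let-7c-5p the called members were let-7f-5p, from 90.2 ± 33.8 to 809 ± 28.9 CPM, and let-7b-5p, from 18.0 ± 4.52 to 184 ± 41.8 CPM (mean ± SD, n = 3, edgeR FDR = 8.71e-04 and 0.00173), the latter not called in the fit of all 12 libraries. let-7a-5p, the most abundant member in hiPSC-EV, had 885, 1468 and 2196 CPM there and 2826, 2698 and 4384 CPM in CMm-EV. The groups did not overlap, but the log2 fold change of 1.12 ± 0.41 had an edgeR FDR of 0.0559, and it passed without hiPSC-EV 3 (1.49), without CMm-EV 1 (1.56), without CMm-EV 2 (1.45), and with median-of-ratios scaling (1.47), and also with DESeq2, with the replicate block, with all 12 libraries and with either other filter, but not with library size only (0.80). let-7a-5p, let-7e-5p and let-7c-5p are alike but for single bases, and reads with an error can be assigned to the wrong one.

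Of 12 members of the myomiR list with counts 9 were tested and all 9 were higher in CMm-EV, beside 16.1% over all tested miRNA. Their median log2 fold change was 10.70 (7.95 with 3 at their bound), and the list went from 0.00796%, 0.00466% and 0.00668% of the miRNA counts to 3.25%, 3.19% and 10.5%. Among the 9 are both arms of miR-490, which is not one of the myomiRs named above. The list leaves out miR-486, which is also counted among the myomiRs and was kept with the blood and serum miRNA. Both its arms were lower in CMm-EV, beside 37.5% lower over all tested miRNA. miR-1-3p, which promotes muscle differentiation, had 28.2, 30.4 and 58.6 CPM in hiPSC-EV and 23563, 34860 and 138924 CPM in CMm-EV. CMm-EV 3 stood well above the other libraries of its group. The log2 fold change was 10.70 ± 0.69 (edgeR FDR = 2.68e-04), and 9.66 without CMm-EV 3, 11.37 without CMm-EV 2 and 11.46 without CMm-EV 1.

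miR-133a-3p, which shares its transcripts with miR-1, did not follow this spread. It had 24.5, 9.31 and 3.64 CPM in hiPSC-EV and 3907, 2246 and 2559 CPM in CMm-EV, where library 1 and not library 3 was the highest. The log2 fold change was 7.95 ± 0.65 (edgeR FDR = 3.96e-04) and 8.97 without hiPSC-EV 1. Hairpins of both miRNA lie next to each other on chromosome 18, miR-1 at chr18:21829004-21829088 and miR-133a at chr18:21825698-21825785, in exons of MIR133A1HG, and again on chromosome 20 within MIR1-1HG.

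Some muscle miRNA were at or near zero counts in hiPSC-EV. miR-208a-3p had 0, 0 and 1 counts in hiPSC-EV and 418, 2756 and 1615 in CMm-EV (log2 fold change 11.58 ± 1.05, edgeR FDR = 5.38e-05, and 13.28 without hiPSC-EV 3). miR-208b-3p had no count in hiPSC-EV and 56.0, 63.8 and 79.2 CPM in CMm-EV, at least 44.2-fold higher (edgeR FDR = 0.00144). miR-490-3p, encoded in an intron of the muscarinic receptor gene CHRM2 at chr7:136903167-136903294, had 0, 0 and 1 counts against 640, 4925 and 2847 (log2 fold change 12.35 ± 1.06, edgeR FDR = 3.55e-05, and 14.05 without hiPSC-EV 3). miR-499a-5p, which was outside the rule for naming and was added after its values were seen, had a mean of 264 ± 74.3 CPM in CMm-EV and 0.673 ± 1.17 CPM in hiPSC-EV (SD, n = 3).

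miR-208a (chr14:23388596-23388666) lies in an intron of MYH6 and miR-208b (chr14:23417987-23418063) in an intron of MYH7, the ventricular beta myosin heavy chain. Fragments of both host transcripts were counted in the CMm-EV libraries. Over all rows of each gene, MYH6 had 120, 631 and 332 counts in CMm-EV and MYH7 had 33, 329 and 13, against 0, 0 and 1 for MYH6 and 0, 3 and 0 for MYH7 in hiPSC-EV. CHRM2, the host of miR-490, had 15, 16 and 19 counts in CMm-EV and none in hiPSC-EV. CARMN, MIR100HG and SPACA6, the hosts of miR-143/145, miR-100 and miR-99b, had at most 8 counts in any library.

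miR-143 and miR-145, known from smooth muscle and from the early heart, rose to a leading place in CMm-EV. Their share of the miRNA counts went from 0.0290%, 0.0326% and 0.0473% to 11.5%, 10.4% and 10.7%. All 4 tested strands were higher (median log2 fold change 7.63), beside 16.1% higher over all tested miRNA. miR-143-3p had 167, 246 and 415 CPM in hiPSC-EV and 98261, 122030 and 139640 CPM in CMm-EV, a log2 fold change of 8.76 ± 0.37 (edgeR FDR = 2.87e-05). miR-143-5p, the other strand, had no count in hiPSC-EV and 936, 932 and 762 CPM in CMm-EV, at least 584-fold higher (edgeR FDR = 1.35e-04). miR-145-3p went from 0, 43.3 and 83.0 to 2775, 4229 and 4725 CPM (log2 fold change 6.50 ± 1.11, edgeR FDR = 0.00585, 7.42 without hiPSC-EV 3 and 7.12 without CMm-EV 1). Both hairpins lie within CARMN on chromosome 5, miR-143 at chr5:149428918-149429023 and miR-145 at chr5:149430646-149430733.

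miR-10a-5p, encoded in the HOXB cluster at chr17:48579838-48579947, was in none of the lists and among the large changes. It had 2, 93 and 4 counts in hiPSC-EV and 6894, 86748 and 73548 in CMm-EV. Its log2 fold change was 10.18 ± 1.16 (edgeR FDR = 0.00193), and 13.61 without hiPSC-EV 2, which held most of the hiPSC-EV counts, and 9.58 without hiPSC-EV 3.

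Of the families linked to heart metabolism and general expression, miR-30 had 1 of 8 tested members called, and miR-378a with miR-26 had 1 of 3. Both were higher, beside 16.1% higher and 53.6% called in either direction over all tested miRNA. The 8 tested miR-30 members had a median log2 fold change of 0.84, against -1.53 over all tested miRNA, and 5 of them did not overlap between the groups, beside 72% over all tested miRNA. Of the 8, 1 was called: miR-30d-5p had 6092, 9114 and 10488 CPM in hiPSC-EV and 22295, 19817 and 19522 CPM in CMm-EV. The groups were apart by a small factor, with a log2 fold change of 1.26 ± 0.28 (edgeR FDR = 0.00711) that was 0.95, under the limit of 1, with library size alone. Of the 3 tested members of miR-378a and miR-26, miR-26b-5p was called, from 72.5, 123 and 202 to 345, 404 and 490 CPM (log2 fold change 1.64 ± 0.47, edgeR FDR = 0.0250), and not without hiPSC-EV 2 (1.60).

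The abundant miR-26a-5p had overlapping groups. It had 31658, 59764 and 84657 CPM in hiPSC-EV and 67315, 69127 and 60763 CPM in CMm-EV, with a log2 fold change of 0.16 ± 0.36 (edgeR FDR = 0.719) whose sign turned with library size alone. miR-191-5p, often used as a reference miRNA, had 29763, 43138 and 59872 CPM against 13809, 24333 and 27975 CPM. The groups were apart, but its log2 fold change of -1.01 ± 0.37 had an edgeR FDR of 0.0576, and it was called without hiPSC-EV 1 (-1.09) and with library size alone (-1.39).

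Marker miRNA of other cell types that a differentiation culture or a medium could hold were described in the same way. Of 4 tested endoderm and liver miRNA, miR-122-5p, the main miRNA of hepatocytes, was called higher, beside 16.1% higher over all tested miRNA. It had 0, 0 and 6 counts in hiPSC-EV and 515, 1014 and 3304 in CMm-EV. Its log2 fold change was 9.71 ± 1.12 (edgeR FDR = 8.69e-04), 13.48 without hiPSC-EV 3 and 10.43 without CMm-EV 2, while the group as a whole held 0.177% ± 0.0157 and 0.200% ± 0.0508 of the miRNA counts. Not called were miR-192-5p, miR-194-5p and miR-375-3p, with log2 fold changes of 0.18, -0.39 and -2.80. For miR-375-3p the groups did not overlap, and CMm-EV was the lower (edgeR FDR = 0.0630). The transcripts of the endoderm and liver list had at most 9 counts on any row in any library. Those of the fibroblast and smooth muscle list, of which no row was tested, held 0.0250%, 0.00336% and 0.00576% of the gencode counts in hiPSC-EV and 0.0814%, 0.0292% and 0.0109% in CMm-EV, with overlap. Those of the neural list held 0.00163%, 0.00324% and 0.00372% in hiPSC-EV and 0.0472%, 0.00931% and 0.00511% in CMm-EV, without overlap, and its 1 tested row, NES, an intermediate filament of neural and other progenitors, was not called (0, 22 and 54 counts against 61, 30 and 13, edgeR FDR = 0.453). The endothelial list held 0.00330% to 0.00651% in hiPSC-EV and 0% to 0.0194% in CMm-EV, and its 1 tested row was not called. Of 5 tested fibroblast and mesenchymal miRNA miR-199a-5p was higher and miR-199b-5p lower, beside 16.1% higher and 37.5% lower over all tested miRNA. The call of miR-199a-5p was lost without hiPSC-EV 1, without hiPSC-EV 2, with no filter, with filterByExpr and in the fit of all 12 libraries, and that of miR-199b-5p in the last of these. The share of the list was 0.771%, 0.682% and 0.918% in hiPSC-EV and 0.504%, 0.450% and 0.413% in CMm-EV. The most abundant of them, miR-21-5p, had 4715, 5663 and 9709 CPM in hiPSC-EV and 4221, 5306 and 5462 CPM in CMm-EV, a difference that did not pass (log2 fold change -0.42 ± 0.34, edgeR FDR = 0.340).

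Both tested blood and serum miRNA were lower in CMm-EV, beside 37.5% lower over all tested miRNA. Both are arms of miR-486, abundant in red blood cells and also enriched in striated muscle. miR-486-3p had no count in CMm-EV. miR-486-5p had 4303, 6402 and 8185 CPM in hiPSC-EV and 616, 570 and 598 CPM in CMm-EV (log2 fold change -3.40 ± 0.31, edgeR FDR = 2.83e-04), and the share of the list went from 0.657% to 0.730% down to 0.0437% to 0.0695%. Of the neural list, 2 of 3 tested members were lower, beside 37.5% over all tested miRNA, and its share overlapped, with 0.150% to 0.182% in hiPSC-EV and 0.0768% to 0.159% in CMm-EV. In this list miR-124-3p, a neuronal miRNA, had a mean of 141 ± 83.6 CPM in hiPSC-EV (SD, n = 3) and no count in CMm-EV, at least 103-fold lower. Of 2 tested endothelial miRNA 1 was lower, beside 37.5% over all tested miRNA. This was miR-126-5p, with 25.4, 50.5 and 49.3 CPM against 0, 3.14 and 6.20 CPM. Its call (log2 fold change -3.66 ± 1.09, edgeR FDR = 0.0345) was lost without any 1 hiPSC-EV library (-3.79, -3.51 and -3.54) and without CMm-EV 2 (-3.27), also with no filter, with filterByExpr and in the fit of all 12 libraries, and its log2 fold change was -2.86 without CMm-EV 1 and -4.26 without CMm-EV 3. The part of other cell types or of the medium in these values was not tested.

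Counts were then summed over miRNA with the same seed, the sequence that sets which messenger RNA can be bound. Of 1018 miRNA with counts, 891 had a RefSeq sequence, and the 127 without one held between 2.75% and 5.89% of the miRNA counts of a library. Of 247 tested seeds 119 were called (48.2%), 40 higher (16.2%) and 79 lower (32%) in CMm-EV. With the counts pooled, the cargo of each group was dominated by a few seeds.

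In hiPSC-EV, AUUGCAC was the most abundant seed. Its 6 miRNA, among them miR-92a-3p, miR-363-3p, miR-92b-3p, miR-25-3p and miR-367-3p of different clusters, held 23.7%, 22.3% and 18.8% of the miRNA counts, against 2.19%, 1.78% and 1.46% in CMm-EV (log2 fold change -3.07 ± 0.30, edgeR FDR = 1.94e-04). AAGUGCU, shared by the 3p strands of miR-302 and by miR-372-3p, followed with 21%, 17.8% and 17.6%, against 0.0253%, 0.00800% and 0.00550% in CMm-EV (log2 fold change -10.15 ± 0.48, edgeR FDR = 2.92e-05). The most abundant seed of hiPSC-EV thus remained at rank 8 in CMm-EV, while the next went to rank 78.

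In CMm-EV, the ACCCGUA seed of miR-100-5p, miR-99a-5p and miR-99b-5p held 35.7%, 44.8% and 41.0% of the miRNA counts, up from 2.19%, 1.93% and 2.15% in hiPSC-EV. Its log2 fold change was 4.79 ± 0.38 (edgeR FDR = 1.20e-04). CCCUGAG, the seed of miR-125a-5p and miR-125b-5p, rose from 0.742% ± 0.103 to 17.3% ± 1.09 (SD, n = 3, log2 fold change 5.07 ± 0.30, edgeR FDR = 2.92e-05). GGAAUGU, the seed of miR-1-3p and miR-206, had 2.65%, 2.83% and 10.2% in CMm-EV and at most 0.00600% in hiPSC-EV. The high value was again that of CMm-EV 3, without which its log2 fold change of 10.63 ± 0.68 (edgeR FDR = 1.33e-04) was 9.57, and it was 11.49 without CMm-EV 1 and 11.26 without hiPSC-EV 3.

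**Figure D4:**
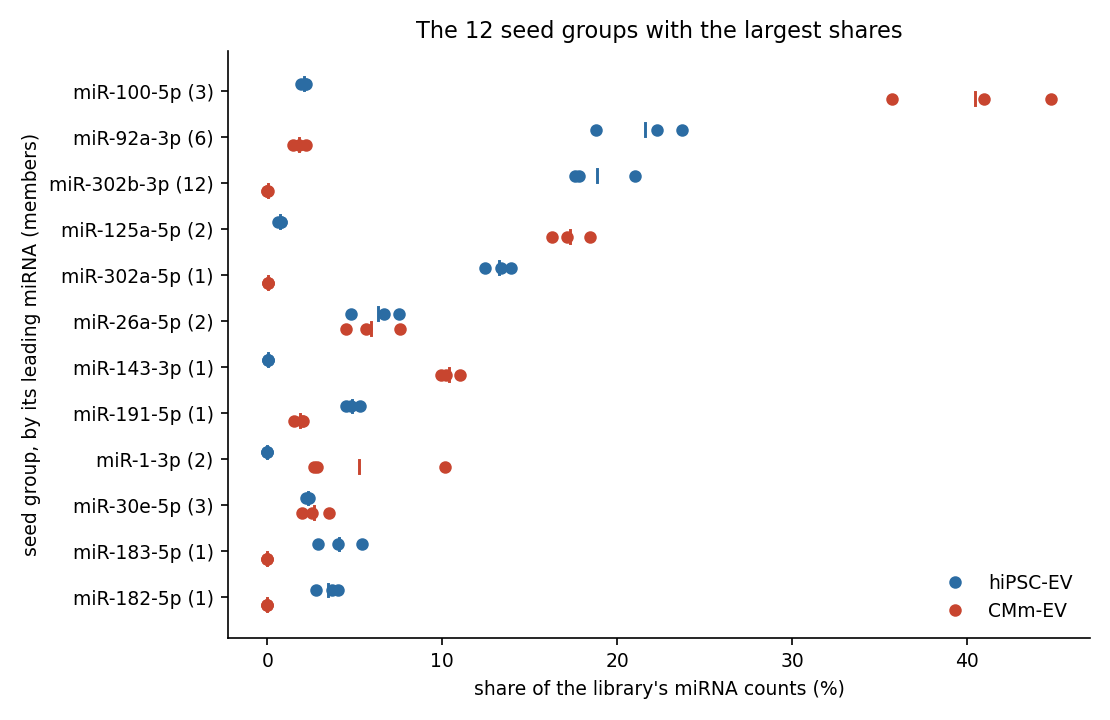
Share of each library's miRNA counts (x axis, percent) held by the 12 seed groups with the largest shares (y axis, named by the leading miRNA with the number of members), with hiPSC-EV in blue, CMm-EV in red and a line at each mean. The group led by miR-100-5p lies at 1.93% to 2.19% in hiPSC-EV and 35.7% to 44.8% in CMm-EV, and the group led by miR-302b-3p at 17.6% to 21% and at most 0.0253%.

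Of 19 seeds with at least 2 called members, 18 had all of them in the same direction, and the exception was CAGUGCA, with log2 fold changes of -2.01 for miR-148a-3p and 3.09 for miR-152-3p. Both arms of a hairpin were tested for 60 hairpins, of which 25 had both arms called, each pair in the same direction, 19 had 1 arm called and 16 had none. The ratio of the 5p to the 3p arm was called for 0 of 75 hairpins (0%, limma, smallest FDR 0.228, with 10 at an unadjusted p of at most 0.05 and 5 called with a pseudocount of 5 in place of 0.5), and 70 of 75 had the same dominant arm in both groups. In base composition, the median GC content was 50% for the 53 higher and 47.4% for the 109 lower miRNA with a sequence, and 52.2% for those not called, with a median length of 22 bases in each set.

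Among gencode transcripts, 838 were tested and 153 called (18.3%), 47 higher (5.61%) and 106 lower (12.6%) in CMm-EV. Rows of these tables are a gene and a transcript type, and the values are counts of small fragments, not of whole messenger RNA. No row was called when any 1 hiPSC-EV library was left out (333, 218 and 321 rows at an unadjusted p of at most 0.05), while 294 to 385 were called without a CMm-EV library. The calls in this class, including each one named below, thus rest on all 3 hiPSC-EV libraries.

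Of 41 rows of the pluripotency list with counts 8 were tested, and all 8 were lower in CMm-EV, beside 12.6% lower over all tested rows. Their median log2 fold change was -9.14 (-4.14 with 7 at their bound), against -0.38 over all tested rows. That median of all rows depended on the scaling, with 0.30 for library size alone and -0.91 for median-of-ratios scaling, and it was -0.97 without CMm-EV 1 and -0.13 without hiPSC-EV 2. Counts on LIN28A, the RNA-binding protein that blocks let-7 maturation, were 69, 131 and 324 in hiPSC-EV and 0 in each CMm-EV library, at least 23-fold lower in CPM (edgeR FDR = 0.0239). ESRG, a lncRNA of human embryonic stem cells, had 552, 1197 and 645 counts against none, at least 128-fold lower (edgeR FDR = 0.0239). POU5F1 was at least 21.2-fold lower. The 2 tested of 40 rows of the cell cycle list with counts were lower too, beside the same 12.6%. The proliferation marker MKI67 had 37, 64 and 106 counts in hiPSC-EV and none in CMm-EV.

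Of 18 tested rows of the sarcomere list, of 48 with counts, 17 were higher and none lower, beside 5.61% higher over all tested rows. Their median log2 fold change was 8.55 (4.58 with 10 at their bound). The list went from 0.0163%, 0.0131% and 0.00697% of the gencode counts to 2.44%, 1.90% and 0.901%. TTN, which encodes the giant spring protein of the sarcomere, had 27, 58 and 18 counts in hiPSC-EV and 2286, 3464 and 1603 in CMm-EV. The groups were far apart (log2 fold change 7.03 ± 0.66, edgeR FDR = 0.0239), and the call was lost without hiPSC-EV 1, 2 or 3 at 6.71, 7.16 and 6.40, and the change was 6.42 without CMm-EV 1. MYL7, the atrial myosin light chain, had no count in hiPSC-EV and 65, 149 and 57 in CMm-EV, at least 51.4-fold higher.

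MYH6 had a log2 fold change of 10.50 ± 1.35 (edgeR FDR = 0.0239) and 9.66, 9.79 and 11.53 without hiPSC-EV 1, 2 and 3. MYH7 was uneven, with 33, 329 and 13 counts in CMm-EV against 0, 3 and 0 in hiPSC-EV. Its log2 fold change was 7.50 ± 1.67 (edgeR FDR = 0.0329), with 6.59, 9.98 and 6.60 without hiPSC-EV 1, 2 and 3 and 5.52 without CMm-EV 2, in each case not called. Of 4 tested rows of calcium handling genes 1 was higher, beside 5.61% over all tested rows. No row of the fatty acid oxidation and heart metabolism list had enough counts to be tested. Of 50 tested rows of ribosomal proteins, 4 were lower (12.6% over all tested rows) and none higher. Their median log2 fold change was -1.69, against -0.38 over all tested rows, a value that moves with the scaling as given above.

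**Figure D5:**
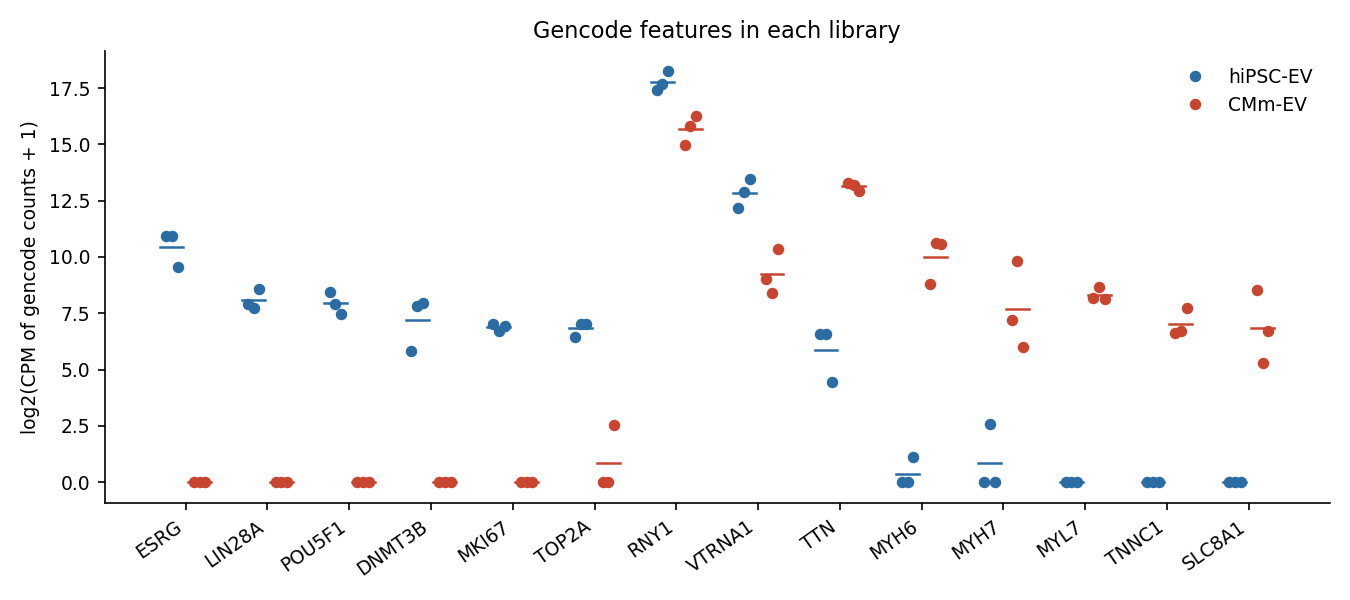
Level of transcript rows in each library (y axis, log2(CPM of gencode counts + 1)), with the 3 hiPSC-EV libraries in blue, the 3 CMm-EV libraries in red and a line at each mean. ESRG, LIN28A and POU5F1 are at 0 in each CMm-EV library and MYL7 in each hiPSC-EV library, while RNY1 is high in both groups.

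Most gencode counts came from small noncoding RNA. The transcript type misc_RNA, which includes Y RNA and vault RNA, held 70.5%, 76.6% and 79.3% of the gencode counts in hiPSC-EV and 53.1%, 63.1% and 53.7% in CMm-EV (two-sided exact permutation test, p = 0.1, n = 3), and protein-coding rows held 12.8% ± 4.29 and 21.6% ± 5.17 (p = 0.1 by the same exact test). Of 9 tested rows of Y RNA, vault RNA, 7SL and 7SK, 3 were lower in CMm-EV, beside 12.6% over all tested rows. Other abundant misc_RNA rows are outside this list. Among them, RF00019, RNY4P7 and RNY4P10 had overlapping groups and were not called (edgeR FDR = 0.331, 0.332 and 0.344). RF00019 took 27.7%, 31.3% and 32.8% of the gencode counts in hiPSC-EV and 23.2%, 28.4% and 23.7% in CMm-EV. RNY1, a Y RNA that binds the Ro60 protein, took 16.1%, 15.6% and 14.1% of the gencode counts in hiPSC-EV and 5.61%, 6.54% and 5.44% in CMm-EV. Its log2 fold change was -2.05 ± 0.52 (edgeR FDR = 0.0395), and it was not called without hiPSC-EV 1 (-2.95), 2 (-2.40) or 3 (-1.97) or CMm-EV 2 (-2.26) and was -2.64 without CMm-EV 3. RNY4 took 8.73%, 9.56% and 10.5% and 8.51%, 9.58% and 8.36%, with overlapping groups (edgeR FDR = 0.427). The vault RNA row VTRNA1 had 1307, 4633 and 9696 counts in hiPSC-EV and 118, 123 and 268 in CMm-EV (log2 fold change -3.43 ± 0.69, edgeR FDR = 0.0239), and its log2 fold change was -4.44, -3.75 and -3.27 without hiPSC-EV 1, 2 and 3, -3.29 without CMm-EV 2 and -4.48 without CMm-EV 3, called only in the last of these.

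Of 371 tested tRNA features 91 were called (24.5%), 42 higher (11.3%) and 49 lower (13.2%) in CMm-EV, so that 46.2% of the calls were higher. With library size alone 143 were called, 108 higher and 35 lower, and 75.5% of the calls were higher, so that the balance of directions in this class depends on the scaling. Many features share reads, and the 42 higher ones had 17 distinct sets of counts and the 49 lower ones 46. The tables give tRNA as sequence identifiers without anticodons, and the identifiers are used here as given. URS000063FB43_9606, chosen after its values were seen, held 13.1%, 18.7% and 21.3% of the tRNA counts in hiPSC-EV and 0.589%, 0.748% and 0.733% in CMm-EV, with a log2 fold change of -5.31 ± 0.26 (edgeR FDR = 8.18e-05). URS000080E36F_9606 went the other way, with 55, 122 and 110 counts in hiPSC-EV and 779, 857 and 1438 in CMm-EV (log2 fold change 3.69 ± 0.44, edgeR FDR = 0.00143).

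The piRNA class rested on a pair of sequences. piR-33043 took 73.1%, 70.6% and 77.1% of the piRNA counts in hiPSC-EV and 76.4%, 75.4% and 75.6% in CMm-EV, and with piR-33044 it reached 97.6% to 99.3% in every library. Neither was called (edgeR FDR = 0.918 and 0.132), so that the lower piRNA share of CMm-EV came with the same 2 leading sequences. Of 19 tested features 2 were called (10.5%), piR-33151 higher (0, 6 and 17 counts against 81, 40 and 25) and piR-61298 lower (59, 106 and 141 counts against none), and both calls were lost in some of the alternatives. The log2 fold change of piR-33151 was 5.78 and ran from 2.63 to 6.23 over the alternatives other than the replicate block. piR-61298, with no count in CMm-EV, was at least 9.65-fold lower. Its log2 fold change as fitted, which is not a bound, was -9.62 and ran from -9.75 to -7.48 over the same alternatives.

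Of 181 tested circular RNA features 37 were called (20.4%), 12 higher (6.63%) and 25 lower (13.8%). Several annotated circles share the same reads, and the 12 higher had 10 and the 25 lower 18 distinct sets of counts. hsa_circ_0132736 had 51, 110 and 136 counts in hiPSC-EV and none in CMm-EV, at least 42.2-fold lower (edgeR FDR = 0.00729), and 3 other annotated circles had the same counts in each library. hsa_circ_0003072 had 38, 30 and 19 counts in hiPSC-EV and 385, 671 and 122 in CMm-EV (log2 fold change 3.00 ± 0.82, edgeR FDR = 0.0366), and its call was lost without any 1 of the 6 libraries (2.53 to 3.70). No circular RNA was called without hiPSC-EV 3, the deepest library of its group.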

How the data were processed

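Small RNA was sequenced from EV of 3 hiPSC-EV and 3 CMm-EV isolations. The authors assigned reads with the exceRpt pipeline (genome build hg38) and deposited expected counts per feature for 5 RNA classes, which were rounded to whole numbers here (9.05% of the non-zero miRNA values of these libraries were not whole). The RPM values deposited by the authors gave the library totals. TMM was computed within each class over the 6 libraries. miRNA and seed sums with at least 5 CPM in each library of at least 1 group, and features of other classes kept by filterByExpr, were tested two-sided by quasi-likelihood in edgeR 4.0.16, run under R 4.3.3 (Benjamini-Hochberg FDR at most 0.05, log2 fold change at least 1), arm ratios with limma 3.58.1 (pseudocount 0.5), and shares with exact permutation tests. The edgeR and limma fits were also tested on simulated data. A fold against a group without counts is a bound at 3 counts in each library, with no SE. Where leaving out a library leaves a group without counts, the log2 fold change is given as fitted and is not a bound. Named were, per list, the 4 most abundant members and up to 6 called ones with groups apart, the 10 most abundant miRNA of each group, and the largest called changes (8 miRNA or 6 other features per direction) with at least 100 CPM, or at least 20 counts in each library, in the higher group. Members and lists were chosen with earlier results of these data known. Alternatives were other scaling, filters and dispersions, DESeq2 1.42.0, a replicate block and each library left out. Coordinates are hg38 with GENCODE 44. The other 6 libraries entered only the fit of all 12 libraries, and the deposited TMM tables were not used here.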

Additional observations from a re-analysis of the deposited data

How the results depend on the processing

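The number of called miRNA lay between 137 and 217 and that of seeds between 86 and 146 over all alternatives, within 1.5 times the values above. Of 76 called miRNA that the naming rule chose, 64 kept the call in every alternative other than the replicate block and none changed sign. The 12 others were miR-17-5p, miR-93-5p, miR-106b-5p, miR-141-3p, miR-182-3p, let-7b-5p, miR-30d-5p, miR-26b-5p, miR-126-5p, miR-199b-5p, miR-199a-5p and miR-345-5p. miR-26a-5p, not called, turned to -0.10 with library size alone and ran from -0.0026 without hiPSC-EV 1 to 0.52 without hiPSC-EV 3. miR-21-5p, not called, turned to 0.13 in the fit of all 12 libraries and ran from -0.52 without hiPSC-EV 2 to 0.00037 without CMm-EV 1. The difference in the circular RNA share ran from -0.173 percentage points without CMm-EV 1 to 0.530 without CMm-EV 3.

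The smaller classes depended more on the processing, and the cause was not tested. tRNA calls were 143 with library size alone, 210 without a filter and 188 with the 5 CPM filter, against 91. piRNA calls were 1 with median-of-ratios scaling, 0 without a filter (25 at an unadjusted p of at most 0.05), 13 with the 5 CPM filter, 6 with DESeq2, 5 in the fit of all 12 libraries and 0 to 12 with 1 library left out, against 2. Gencode calls were 68 without a filter, 1093 with the 5 CPM filter, 249 with DESeq2 and 0 to 385 with 1 library left out, against 153. Circular RNA calls were 17 without a filter, 62 with the 5 CPM filter and 0 to 31 with 1 library left out, against 37 (58 at an unadjusted p of at most 0.05 without hiPSC-EV 3). Arm ratio calls were 5 with a pseudocount of 5.

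The labels do not say whether equal replicate numbers mark a shared batch or culture. Over deviations from the group means, same-numbered libraries correlated at -0.07, -0.14 and 0.10, and the other pairs from -0.13 to 0.21. With 3 libraries in a group, these correlations cannot decide whether the libraries are paired, and the replicate block is given as an alternative only. With the replicate block, 144 tRNA, 0 piRNA, 26 gencode and 7 circular RNA features were called. Depth limits single low features: 3 counts were up to 2.82 CPM for miRNA in hiPSC-EV 1, the shallowest library.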

Other observations

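Further abundant seed families outside the lists, chosen after their values were seen, also differed. GCUACAU, the seed of miR-221-3p and miR-222-3p, held 2.15%, 1.69% and 1.49% of the miRNA counts in hiPSC-EV and 0.0218%, 0.0445% and 0.0283% in CMm-EV. Its log2 fold change was -5.21 ± 0.42 (edgeR FDR = 1.34e-04), and it ran from -5.64 to -4.68 with 1 library left out. Its abundant member miR-222-3p fell from a mean of 13036 to 356 CPM. UCACAGU, the seed of miR-27a-3p and miR-27b-3p, went the other way, from 0.334%, 0.432% and 0.484% to 1.26%, 1.05% and 0.927% (log2 fold change 1.79 ± 0.39, edgeR FDR = 0.00677). The groups did not overlap for either seed, and both were called in each alternative.

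miR-1298-5p was among the miRNA with the largest decrease outside the clusters described above. It had 387, 560 and 729 CPM in hiPSC-EV and no count in CMm-EV, at least 408-fold lower (edgeR FDR = 2.83e-04).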
